A study of Mus musculus with 4 samples.

Results

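Non-cycling CD8 T cells, the T cells that recognise peptide on MHC class I and can kill the cells that carry it, were followed through 4 single-cell RNA libraries of immune cells from mouse brain tumours. They were 568 of 13569 kept cells, out of 16289 barcodes. A cell was a member if it had at least 200 genes and at most 10% of its unique molecular identifiers (UMIs, each standing for 1 captured transcript) from mitochondrial genes, at least 2 UMIs over Cd3d, Cd3e, Cd3g and Trbc2, at least 1 over Cd8a and Cd8b1, none of Cd4 or Foxp3, fewer than 2 over Mki67 and Top2a, and at most 1 over C1qa, C1qb and C1qc. Members were thus chosen by their own UMIs of these 13 genes, whose levels are given only as a description, with no test result.

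The tumours were of a genetically engineered glioma model in C57BL/6 mice. The mIDH1 group carried mutant IDH1 and the wtIDH1 group wild-type IDH1, with 2 libraries each (replicates 1 and 2), all from the symptomatic stage. The gate by which immune cells were isolated, the other alleles of the model, the promoter that drives IDH1, the age of the mice and the number of mice per library are not given in the sources used here. P-values therefore measure the spread between these libraries, which may be technical.

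CD8 T cells leave the lymph node after priming, enter tissue and, on meeting antigen again, release granules of perforin and granzymes and secrete interferon gamma and the chemokines Ccl3, Ccl4, Ccl5 and Xcl1. In tumours, antigen that persists drives them towards a state with high inhibitory receptors (Pdcd1, Lag3, Havcr2) and the factor Tox, fed by a smaller pool that keeps Tcf7 and Slamf6. In the brain, such cells often keep markers of tissue residency such as Cd69 and Cxcr6.

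The members numbered 221 and 111 in mIDH1 replicates 1 and 2, against 98 and 138 in wtIDH1 replicates 1 and 2. Their median depth was 6136 and 6084 UMIs in mIDH1, against 5025 and 4404 in wtIDH1, and their median mitochondrial share was 4.77% and 3.39% in mIDH1, against 6.75% and 6.13% in wtIDH1. mIDH1 members were thus deeper and lower in mitochondrial UMIs in both libraries, and both were varied, by reducing cells to 1000 UMIs and by keeping members with at most 5% mitochondrial UMIs. The 5% limit kept 126 and 106 members in mIDH1, against only 22 and 38 in wtIDH1. Calls lost in that setting thus also come with far fewer wtIDH1 members. The UMIs of all members summed to 1555215 and 744408 in mIDH1, against 600731 and 694219 in wtIDH1. Whole libraries held 20908476 to 29849183 UMIs. Each pair of libraries shared 6 to 25 barcodes, of which 0 were barcodes of CD8 T cells. Idh1 mRNA counted by this assay does not tell the mutant from the wild-type form, so the genotype labels could not be checked by it.

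The members carried the markers of the label, with 1 exception. Cd8a, a coreceptor chain used in the gate, was at 1206 and 1170 CPM (UMIs of the gene scaled to a fixed sum over the members of that library) in mIDH1, against 756 and 968 CPM in wtIDH1. Nkg7, a granule protein of killer cells that is outside the gate, was found in 97.7% and 99.1% of mIDH1 members, against 89.8% and 89.9% of wtIDH1 members. Cxcr6, a chemokine receptor of cells that stay in tissue, was found in 86.0% and 78.4% of mIDH1 members, against 56.1% and 75.4% of wtIDH1 members. Gzmf, a granzyme also listed as a marker, was found in 30 and 2 mIDH1 members, against 4 and 9 wtIDH1 members, so it marked a small share of the cells. The 5 NK cell markers listed summed to 83.6 and 52.4 CPM in mIDH1 (60 and 24 members), against 31.6 and 43.2 CPM in wtIDH1 (10 and 18 members), with Klra4 at 0 in all libraries but mIDH1 replicate 1. Their part in the results on Nkg7 was not tested. Genes listed for gamma delta T cells, a separate T cell lineage, summed to 107 and 96.7 CPM in mIDH1, against 33.3 and 46.1 CPM in wtIDH1. Most of these UMIs were of Tcrg-C2, 127 of 167 and 70 of 72 in mIDH1, against 13 of 20 and 29 of 32 in wtIDH1. Many CD8 alpha beta T cells also transcribe that gene, and Sox13 of the list was at 0 in all libraries. The sum therefore does not count gamma delta T cells.

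Members with a single Cd8a or Cd8b1 UMI numbered 12 and 4 in mIDH1, against 8 and 15 in wtIDH1, while T cells that met all else with no such UMI numbered 64 and 80 in mIDH1, against 98 and 78 in wtIDH1. Nkg7 stood at 1010 and 1060 CPM just inside that edge in mIDH1 and at 989 and 1811 CPM just outside it. In wtIDH1 it stood at 524 and 392 CPM inside and at 631 and 497 CPM outside. At the edge for cycling, 55 and 28 mIDH1 members had 1 UMI of Mki67 or Top2a, against 21 and 26 wtIDH1 members, while 27 and 5 mIDH1 cells and 10 and 13 wtIDH1 cells had exactly 2.

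Non-cycling CD8 T cells took a larger share of the T cells in both mIDH1 libraries than in either wtIDH1 library. They were 40.5% and 35.9% of all T cells in mIDH1 (95% Wilson intervals 36.4 to 44.6 and 30.8 to 41.4), against 20.3% and 33.1% in wtIDH1 (16.9 to 24.1 and 28.7 to 37.7). The means were 38.2% ± 3.22 in mIDH1 and 26.7% ± 9.05 in wtIDH1 (SD, n = 2 each), and the exact two-sided permutation p was 0.3333, the smallest that 2 against 2 libraries can give. The intervals cover counting error only, and those of mIDH1 replicate 2 and wtIDH1 replicate 2 overlap.

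Measured against all kept cells, the shares overlapped. They were 5.87% and 3.07% in mIDH1 (Wilson 5.16 to 6.66 and 2.56 to 3.69), against 3.13% and 4.52% in wtIDH1 (2.57 to 3.79 and 3.84 to 5.31), with an exact permutation p of 1. This share depends on how many other cells a library holds. With cells rich in S100a8 and S100a9, the calprotectin genes of neutrophils, left out, the shares were 8.02% and 5.79% in mIDH1, against 3.25% and 4.80% in wtIDH1. Cycling cells made up 27.3% and 20.1% of all CD8 T cells in mIDH1, against 32.9% and 35.8% in wtIDH1, so both mIDH1 libraries had the lower cycling share (means 23.7% and 34.3%, exact permutation p = 0.3333).

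**Figure D1:**
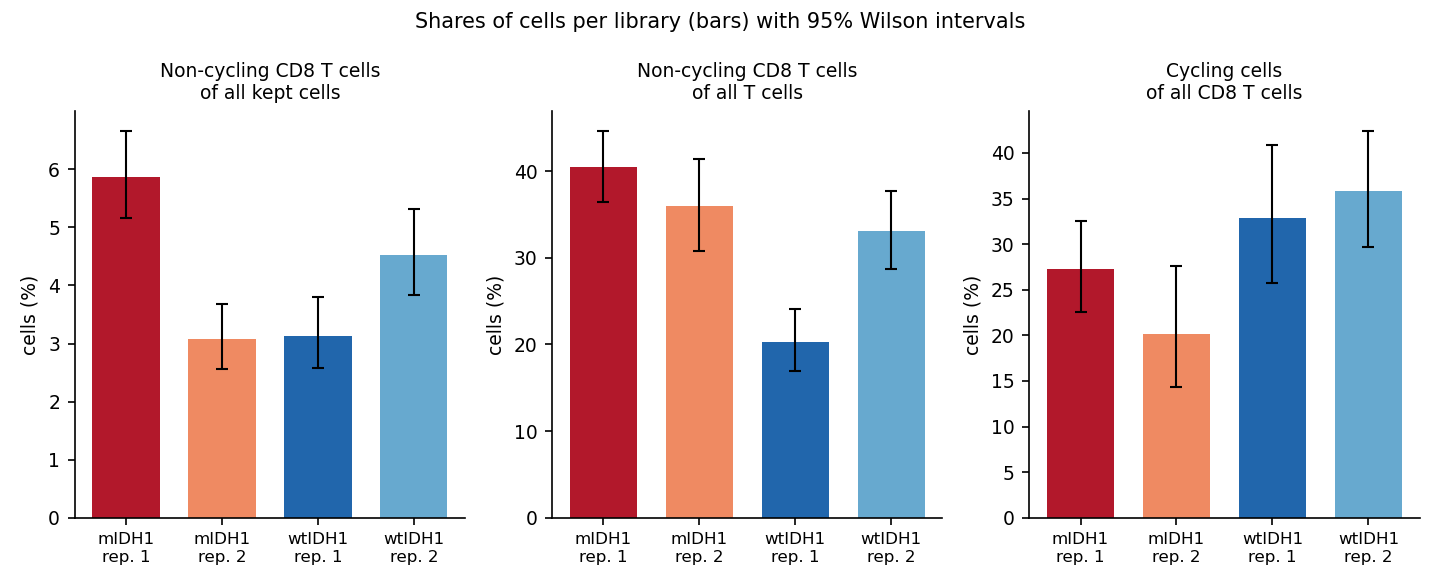
Cells in percent (vertical axes) per library, with mIDH1 left of wtIDH1: non-cycling CD8 T cells of all kept cells and of all T cells, and cycling cells of all CD8 T cells. Bars are the shares and whiskers 95% Wilson intervals, which cover counting error only. The share of T cells is 40.5% and 35.9% in mIDH1, against 20.3% and 33.1% in wtIDH1, while the shares of kept cells overlap.

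UMIs of the members were summed per library, and mIDH1 was tested against wtIDH1 with edgeR's quasi-likelihood test. The Benjamini-Hochberg adjustment ran over 7152 genes, those of the gate among them. Counts and shares are given for the 7143 genes outside the gate, called genes tested below. A positive log2 fold change means higher in mIDH1, and "rose" and "fell" stand for adjusted p under 0.05. Of the genes tested, 211 rose (2.95%) and 62 fell (0.868%), or 273 in all (3.82%). Counts of list members that rose or fell between genotypes are to be read beside these shares. The groups did not overlap in CPM with mIDH1 higher for 14.1% of genes tested and with mIDH1 lower for 44.4% (58.5% in all), before any correction for composition. In sums of this kind, a change in how many members express a gene and a change in RNA per member cannot be told apart, so shares of cells are given beside the sums for the main genes.

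Several secreted signals rose. Of 17 cytokines and chemokines listed, 13 passed the filter on low counts. Of these 4 rose and 0 fell, beside 2.95% and 0.868% of all genes tested. Their median log2 fold change was 1.07, against −0.01 over all genes tested. The 4 that rose were Ccl3, Ccl4, Ccl5 and Ifng. The libraries did not overlap with mIDH1 higher for 6 of the 13, against the 14.1% given above. Ccl3, Ccl4 and Ccl5 were also higher in mIDH1 in macrophages of the same libraries. There Ccl3 was at 676 and 526 CPM in mIDH1, against 293 and 296 CPM in wtIDH1. Ccl4 was at 847 and 947 CPM, against 399 and 368 CPM, and Ccl5 at 764 and 645 CPM, against 248 and 82.9 CPM. Ifng was at most at 1.72 CPM in them. The part of macrophage RNA in these calls was not tested.

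Ccl3, a chemokine that draws macrophages and T cells (chr11:83647844-83649355 in mm10, minus strand), was at 693 and 1302 CPM in mIDH1, against 135 and 375 CPM in wtIDH1. Both mIDH1 libraries lay above both wtIDH1 libraries, with a log2 fold change of 2.26 (SE 0.41, adjusted p = 0.00881). Its neighbour Ccl4, a chemokine of the same family (chr11:83662584-83664683, plus strand), was at 2286 and 4637 CPM in mIDH1, against 543 and 1868 CPM in wtIDH1 (1.83, SE 0.47, adjusted p = 0.0461). A single member held 29.6% of the Ccl3 UMIs of mIDH1 replicate 2, and another 37.5% of the Ccl4 UMIs of wtIDH1 replicate 2, so these sums rest in part on few cells.

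Ccl5, made by effector and memory CD8 T cells (chr11:83525778-83530518, minus strand), was at 2336 and 2730 CPM in mIDH1, against 1175 and 772 CPM in wtIDH1. The libraries were well apart and no member held over 10.9% of the UMIs of its library, with a log2 fold change of 1.67 (SE 0.26, adjusted p = 0.00465). Ifng, the cytokine that activates macrophages and raises MHC expression (chr10:118441046-118445892, plus strand), was at 562 and 1153 CPM in mIDH1, against 236 and 455 CPM in wtIDH1 (1.61, SE 0.37, adjusted p = 0.0257). The lower mIDH1 value and the higher wtIDH1 value of Ifng differed by less than the libraries within either group.

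With every cell reduced at random to 1000 UMIs, which removes the difference in depth and left out none of the members, Ifng was found in 32.1% and 31.5% of mIDH1 members, against 10.2% and 15.2% of wtIDH1 members. In macrophages of the same libraries, which should lack Ifng and were deeper (median 7944 to 9462.5 UMIs before reduction), at most 0.52% of cells held a UMI of Ifng. Without reduction, Ifng was found in 70.1% and 64.9% of mIDH1 members, against 41.8% and 45.7% of wtIDH1 members. Ifng was thus found in a larger share of mIDH1 members at equal depth. For Ccl5 the reduced shares were 59.7% and 63.1% in mIDH1 members, against 43.9% and 43.5% in wtIDH1 members, with 22.97% to 29.1% of mIDH1 macrophages and 5.82% to 13.4% of wtIDH1 macrophages. Ccl3 was found in 20.8% and 29.7% of mIDH1 members, against 9.18% and 22.5% of wtIDH1 members, but also in 18.1% to 29.2% of the macrophages, which make Ccl3 themselves, so its shares of cells lie at the macrophage level and are not read.

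Ccl1, a ligand of Ccr8 (chr11:82176657-82305690, minus strand), rose as well. It was at 70.1 and 527 CPM in mIDH1 (109 and 392 UMIs), against 0 and 7.20 CPM in wtIDH1 (0 and 5 UMIs), with a log2 fold change of 6.53 (SE 1.04, adjusted p = 0.00471). The UMIs came from 14 and 21 mIDH1 members and from 0 and 3 wtIDH1 members, and 1 cell held 51.4% and 65.6% of those in each mIDH1 library. Ccl1 was therefore a gene of few members. Xcl1, which attracts cross-presenting dendritic cells, was at 108 and 818 CPM in mIDH1, against 38.3 and 135 CPM in wtIDH1, so the groups overlapped (2.71, adjusted p = 0.053). Csf1 (1.18, adjusted p = 0.0551), Tnf (0.22, adjusted p = 0.775) and Il2 (−1.72, adjusted p = 0.102) did not pass.

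These calls are of unequal firmness. Ifng missed the threshold with the highest Scrublet doublet scores left out (0.78), as did Ccl4 (1.04), and in DESeq2 Ccl3, Ccl4 and Ifng had adjusted p of 0.100, 0.339 and 0.218. Among members with at most 5% mitochondrial UMIs, Ccl3 (1.82) and Ifng (1.20) did not pass, nor did Ifng (1.55) and Ccl4 (1.85) with at least 2 Cd8a or Cd8b1 UMIs. Without wtIDH1 replicate 1 the lone wtIDH1 library is assumed to vary like the other group, and Ifng and Ccl4 then missed it too (1.21 and 1.19), while Ccl5 missed it without wtIDH1 replicate 2 (1.41). Scaled to library totals only, Ccl3 and Ccl5 rose and Ifng (1.30) and Ccl4 (1.52) did not pass, in a fit whose median over all genes was −0.28 and in which 1.51% of genes rose and 1.92% fell (3.43% in all).

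**Figure D2:**
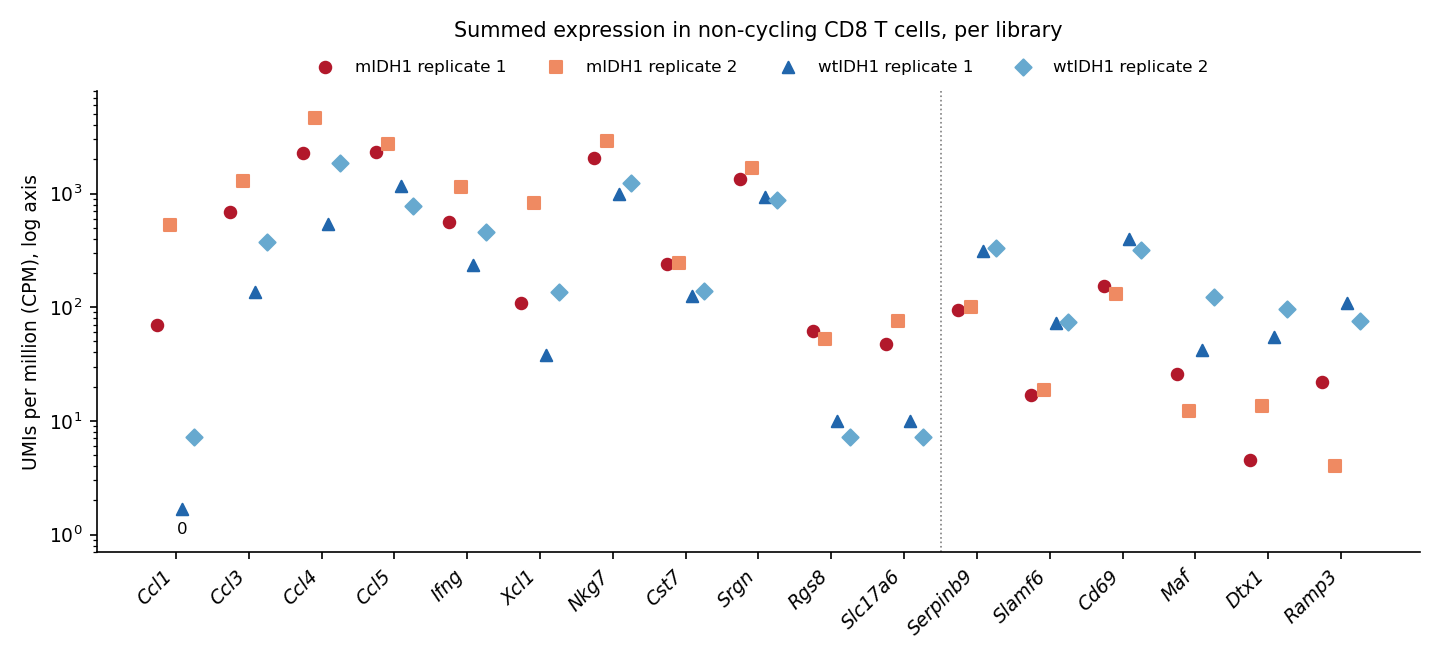
Summed level of named genes in non-cycling CD8 T cells in CPM (vertical axis, log scale), with 1 point per library and mIDH1 left of wtIDH1 for each gene. Genes left of the dotted line had a positive log2 fold change, with Xcl1 alone overlapping between the groups, and those right of it a negative one. The wtIDH1 value of 0 for Ccl1 is drawn at the level of 1 UMI and marked 0.

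The stretches of 250 bases before the start of 4 of these genes are shown because these genes rose together in mIDH1 members. They are from RefSeq on GRCm38.p6, 5′ to 3′ on the strand of the gene, at chr11:82179813-82180062 (Ccl1, minus), chr11:83649379-83649628 (Ccl3, minus), chr10:118440796-118441045 (Ifng, plus) and chr7:43436888-43437137 (Nkg7, plus). These starts are those of RefSeq and differ from the gene spans given above and below for mm10: the Ccl1 stretch lies inside its span, and the Nkg7 stretch runs past the start of its span. Capitals mark matches.
Ccl1: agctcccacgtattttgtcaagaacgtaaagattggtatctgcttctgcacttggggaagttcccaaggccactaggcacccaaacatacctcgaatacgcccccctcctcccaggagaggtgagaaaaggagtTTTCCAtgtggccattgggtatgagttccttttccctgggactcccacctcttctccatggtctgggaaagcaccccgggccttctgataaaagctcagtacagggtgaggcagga
Ccl3: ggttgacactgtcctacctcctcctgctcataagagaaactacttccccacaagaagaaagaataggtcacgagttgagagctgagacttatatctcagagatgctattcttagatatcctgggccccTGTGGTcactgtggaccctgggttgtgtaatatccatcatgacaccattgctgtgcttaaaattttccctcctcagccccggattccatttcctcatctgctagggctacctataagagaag
Ifng: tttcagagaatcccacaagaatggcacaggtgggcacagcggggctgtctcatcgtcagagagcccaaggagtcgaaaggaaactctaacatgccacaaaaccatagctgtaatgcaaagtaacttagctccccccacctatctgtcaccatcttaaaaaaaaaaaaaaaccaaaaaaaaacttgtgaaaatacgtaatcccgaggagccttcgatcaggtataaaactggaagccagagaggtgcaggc
Nkg7: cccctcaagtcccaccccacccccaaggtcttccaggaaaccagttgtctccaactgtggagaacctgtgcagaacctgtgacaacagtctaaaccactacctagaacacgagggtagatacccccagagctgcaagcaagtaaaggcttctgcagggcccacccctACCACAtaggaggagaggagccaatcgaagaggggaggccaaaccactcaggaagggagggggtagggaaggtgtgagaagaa

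Motifs were searched on both strands, written as TGANTCA for AP-1, TGGAAA for NFAT, TGTGGT for RUNX and TGACGTCA for CRE, along with an NF-kB motif. Ccl1 held an NFAT match 116 bases before its start, Ccl3 a RUNX match at 122 bases, Nkg7 a RUNX match at 83 bases, and Ifng no match in this window. No match overlapped another. Of all 32851 promoters of this length, 18.6% held the NFAT letters, 14.0% the RUNX letters, 6.75% those of AP-1, 1.55% those of CRE and 0.98% those of NF-kB, so such matches are common.

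Of 19 cytotoxic granule genes listed, 14 were tested, 3 rose (Nkg7, Cst7 and Srgn) and 1 fell (Serpinb9), with a median of 0.37. Over all genes tested 2.95% rose and 0.868% fell. Scaled to library totals only, 1 of the list rose and 2 fell, beside 1.51% and 1.92% of all genes. Nkg7 (chr7:43437073-43438249, plus strand) was at 2054 and 2914 CPM in mIDH1, against 992 and 1242 CPM in wtIDH1. The lower mIDH1 library was above the higher wtIDH1 library (1.45, SE 0.27, adjusted p = 0.00916), though without wtIDH1 replicate 1 the call was lost (1.29). At equal depth Nkg7 was found in 76.9% and 90.1% of mIDH1 members, against 56.1% and 65.9% of wtIDH1 members and at most 0.78% of macrophages.

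Cst7, an inhibitor of the proteases that activate granzymes, was at 239 and 246 CPM in mIDH1, against 127 and 140 CPM in wtIDH1 (1.14, adjusted p = 0.0137). Srgn, the proteoglycan core on which granule proteins are packed, was at 1340 and 1676 CPM in mIDH1, against 936 and 870 CPM in wtIDH1 (1.03, adjusted p = 0.028). Both were apart between groups, but each lost its call without wtIDH1 replicate 1 and without wtIDH1 replicate 2 and when scaled to library totals only. With at most 5% mitochondrial UMIs Cst7 (0.90) and Srgn (0.76) lost theirs too, as did Cst7 with cells reduced to 1000 UMIs (1.104). Serpinb9, the inhibitor that shields killer cells from their own granzyme B (chr13:33003250-33017957, plus strand), fell: it was at 93.9 and 99.4 CPM in mIDH1, against 313 and 334 CPM in wtIDH1. The replicates of Serpinb9 were close in both groups (−1.47, SE 0.23, adjusted p = 0.00444), and members with a UMI were 28.1% and 33.3% in mIDH1, against 49.0% and 52.2% in wtIDH1, although mIDH1 members were deeper. With cells reduced to 1000 UMIs the fold change was −0.77 and did not pass.

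The granzymes differed more between replicates than between genotypes. Gzma, a granzyme with tryptase activity, was at 3664 and 615 CPM in mIDH1, against 1085 and 4221 CPM in wtIDH1 (−0.09, adjusted p = 0.961). Gzmb (chr14:56258838-56262260, minus strand), the granzyme that activates caspases, was at 1071 and 501 CPM in mIDH1, against 944 and 1574 CPM in wtIDH1 (−0.42, adjusted p = 0.495). Prf1, the pore former, was at 799 and 390 CPM in mIDH1, against 461 and 487 CPM in wtIDH1 (0.59, adjusted p = 0.25). In each of these genes mIDH1 replicate 2 was the lowest of the 4 libraries. Without it the fold change of Prf1 was 0.95, and without mIDH1 replicate 1 that of Gzmb was −0.94.

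Gzmf (chr14:56205263-56211417, minus strand) was carried by few members. Its UMIs numbered 1049 and 8 in mIDH1, against 53 and 311 in wtIDH1, or 675 and 10.7 CPM in mIDH1, against 88.2 and 448 CPM in wtIDH1 (0.59, adjusted p = 0.775). One cell of mIDH1 replicate 1 held 269 of the 1049. Without mIDH1 replicate 1 the sign turned (−4.25), and Gzma turned without mIDH1 replicate 2 (0.66), both then past the threshold with a lone mIDH1 library that is assumed to vary like the other group. Its neighbour Gzmc in the granzyme cluster was found in 23 and 5 mIDH1 members, against 5 and 8 wtIDH1 members, and 14 of the 23 in mIDH1 replicate 1 also held Gzmf. All 30 Gzmf members of mIDH1 replicate 1 held Gzmb. Gzmb was found in 134 of all 221 members of that library (60.6%), 104 of them without Gzmf, with no correction for depth.

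**Figure D3:**
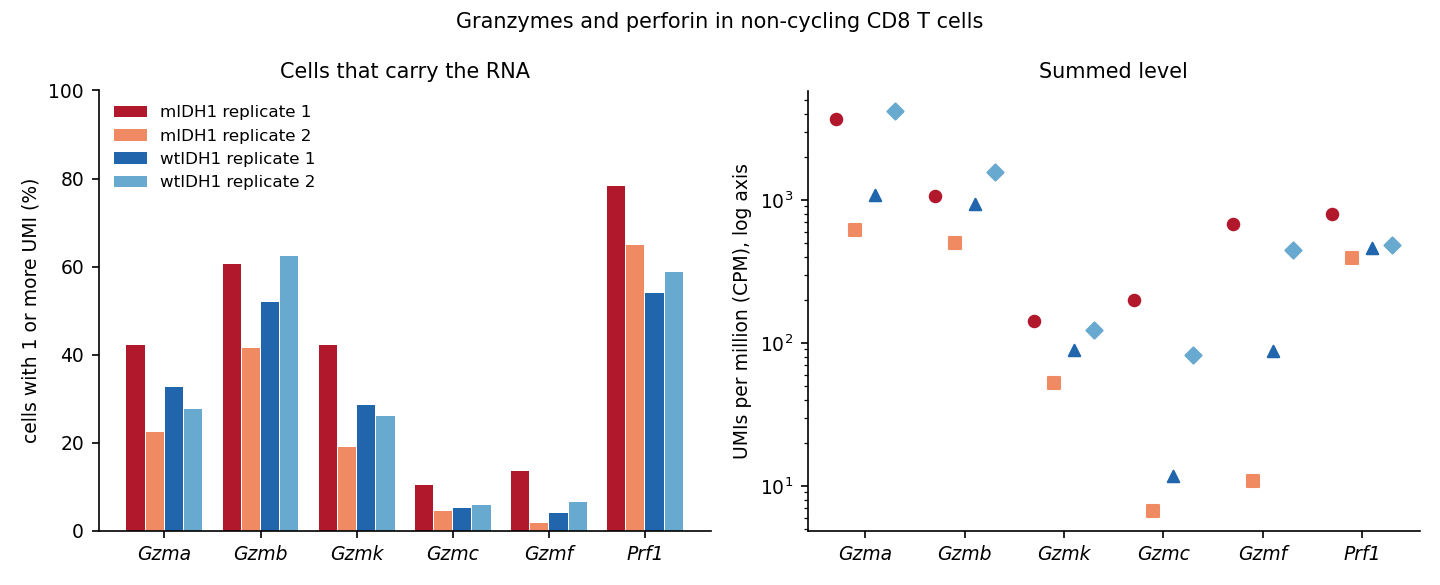
Granzymes and Prf1 in non-cycling CD8 T cells, per library, with mIDH1 left of wtIDH1. The left panel gives the share of members with 1 or more UMIs (percent) and the right panel the summed level (CPM, log scale). Gzmf was found in 30 and 2 mIDH1 members, against 4 and 9 wtIDH1 members, and in the right panel mIDH1 replicate 2 is the lowest library for each gene.

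Among genes of naive and memory cells and of early activation, Slamf6 and Cd69 fell. Of 15 naive and memory genes, 14 were tested, 0 rose and 1 fell (median −0.15). Slamf6, a receptor of progenitor-like CD8 T cells (chr1:171917515-171953170, plus strand), was at 16.7 and 18.8 CPM in mIDH1, against 73.2 and 73.5 CPM in wtIDH1. It was found in 7.69% and 9.91% of mIDH1 members, against 27.6% and 20.3% of wtIDH1 members (−1.79, SE 0.31, adjusted p = 0.00711). The call was lost among members with at most 5% mitochondrial UMIs (−1.67) and with cells reduced to 1000 UMIs (−1.93). The UMIs behind it are few, 26 and 14 in mIDH1, against 44 and 51 in wtIDH1.

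Tcf7, the factor of the progenitor pool, was at 47.6 and 61.8 CPM in mIDH1, against 195 and 64.8 CPM in wtIDH1 (−0.97, adjusted p = 0.205). Its highest value came from wtIDH1 replicate 1 alone. Tcf7 did pass in edgeR with no low-count filter (−0.96, adjusted p = 0.0222) and with a replicate block (−0.92, adjusted p = 0.0135). Its fold change was −1.23 without mIDH1 replicate 2 and −1.56 without wtIDH1 replicate 2, fits that both keep wtIDH1 replicate 1. At equal depth Tcf7 was found in 4.07% and 6.31% of mIDH1 members, against 21.4% and 6.52% of wtIDH1 members.

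Cd69, which holds cells in tissue and also marks recent activation (chr6:129267325-129275436, minus strand), was at 153 and 130 CPM in mIDH1, against 398 and 317 CPM in wtIDH1. The groups were far apart (−1.05, SE 0.23, adjusted p = 0.019). The call was lost without wtIDH1 replicate 1 (−0.89), among members with at most 5% mitochondrial UMIs (−0.49), with cells reduced to 1000 UMIs (−0.94) and with at least 2 Cd8a or Cd8b1 UMIs (−0.94). Of the residency list, 13 of 14 were tested and Cd69 was the only gene called. Of 20 immediate early genes all were tested, 0 rose and Cd69 alone fell (median −0.20), beside Dusp1, a phosphatase induced by stress and activation, at 96.4 and 124 CPM in mIDH1, against 358 and 194 CPM in wtIDH1 (−1.05, adjusted p = 0.0674).

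Inhibitory receptors did not pass in either direction. Of 15 listed, 12 were tested, 0 rose and 0 fell (median 0.08), and 0 were apart between the groups, against 58.5% of all genes tested. Pdcd1, which encodes PD-1, was at 412 and 292 CPM in mIDH1, against 278 and 305 CPM in wtIDH1 (0.54, SE 0.22, adjusted p = 0.201). Lag3 was at 853 and 595 CPM in mIDH1, against 594 and 637 CPM in wtIDH1 (0.51, adjusted p = 0.233). Without mIDH1 replicate 2 the fold changes of Pdcd1 and Lag3 were 0.70 and 0.67. Havcr2, which encodes TIM-3 (0.15, adjusted p = 0.795), and Ctla4 (−0.06, adjusted p = 0.929) were nearer to 0. Pdcd1 was found in 65.6% and 66.7% of mIDH1 members, against 54.1% and 59.4% of wtIDH1 members before reduction, and in 29.9% and 24.3% against 17.3% and 26.8% at equal depth, where the groups overlap.

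Among 20 transcription factors of effector and exhausted cells, 19 were tested, 0 rose and 1 fell. This was Maf, at 25.7 and 12.1 CPM in mIDH1, against 41.6 and 122 CPM in wtIDH1 (−1.77, adjusted p = 0.0432), a call lost without wtIDH1 replicate 2 (−0.76), with the highest Scrublet scores left out (−1.73), with at least 2 Cd8a or Cd8b1 UMIs (−1.89) and with the stricter myeloid gate (−1.41). Tox was at 25.7 and 71.2 CPM in mIDH1, against 69.9 and 93.6 CPM in wtIDH1 (−0.57, adjusted p = 0.484). Without mIDH1 replicate 2 its fold change was −1.47. Of the costimulatory receptors (15 tested), T cell receptor signalling genes (18 tested), migration receptors (10 of 16 tested), NK receptors (6 of 12 tested), MHC class I genes (14 tested) and cell cycle genes (17 of 25 tested), 0 rose and 0 fell. Of the cytokine receptors (19 tested) 1 rose, Il18rap, a chain of the interleukin 18 receptor, at 197 and 206 CPM in mIDH1, against 135 and 115 CPM in wtIDH1 (0.97, adjusted p = 0.0346), a call lost without either wtIDH1 library (1.08 without replicate 1 and 0.88 without replicate 2), in library totals (0.69), with at most 5% mitochondrial UMIs (1.23) and with cells reduced to 1000 UMIs (1.05).

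Several genes with no list changed strongly in the members. Dtx1, an E3 ligase of the Notch pathway that is linked to T cell anergy, was at 4.50 and 13.4 CPM in mIDH1, against 54.9 and 96.5 CPM in wtIDH1 (−3.02, SE 0.47, adjusted p = 0.00444). It was found in 1.81% and 7.21% of mIDH1 members, against 17.3% and 26.8% of wtIDH1 members, and macrophages held almost none. Ramp3, a partner of the calcitonin family receptors, was at 21.9 and 4.03 CPM in mIDH1, against 110 and 74.9 CPM in wtIDH1 (−2.35, adjusted p = 0.00806), from 11 and 3 mIDH1 members and 12 and 11 wtIDH1 members.

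Rgs8, a brake on G protein signalling, was at 61.7 and 52.4 CPM in mIDH1, against 9.99 and 7.20 CPM in wtIDH1 (3.01, SE 0.38, adjusted p = 0.00173). It was found in 22.6% and 18.02% of mIDH1 members, against 6.12% and 2.17% of wtIDH1 members. Slc17a6, a vesicular glutamate transporter best known from neurons, was at 47.6 and 75.2 CPM in mIDH1, against 9.99 and 7.20 CPM in wtIDH1 (3.07, SE 0.44, adjusted p = 0.00355). Both groups were far apart for these genes, but in wtIDH1 each rested on 6 and 5 UMIs. Macrophages held at most 0.25 CPM of either, and Dtx1, Rgs8 and Ccl1 kept their calls in all alternatives that gave them an adjusted p, while Slc17a6 (2.16) and Ramp3 (−1.90) lost theirs at 5% mitochondrial UMIs.

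Some metabolic genes rose, and most of these lost their calls in at least 1 alternative. Of the respiratory chain list, 23 of 24 were in the files and tested. Of these 6 rose and 0 fell (median 0.55), beside 2.95% and 0.868% of all genes tested. Cox8a, a subunit of cytochrome c oxidase, was at 564 and 838 CPM in mIDH1, against 270 and 199 CPM in wtIDH1 (1.88, SE 0.27, adjusted p = 0.00355). The others that rose were Ndufb9 (1.20), Atp5g1 (1.49), Cox6c (1.11), Cox5b (0.99) and Cycs (0.98). All 5 lost their calls with at most 5% mitochondrial UMIs (0.69 to 1.35), and Atp5g1 (1.23), Cox6c (0.95), Cox5b (1.09) and Cycs (0.89) also with cells reduced to 1000 UMIs, while Cox8a kept its call. Of 16 glycolysis genes tested, 2 rose, Eno1 (1.21, adjusted p = 0.0109) and Gapdh (0.88, adjusted p = 0.0453), and of 13 hypoxia genes tested 1 rose, Fam162a (2.10, adjusted p = 0.00585). Eno1 (0.97) and Gapdh (0.84) lost their calls with at most 5% mitochondrial UMIs and without wtIDH1 replicate 2 (1.04 and 0.82), Gapdh also without wtIDH1 replicate 1 (0.95), and Eno1 with cells reduced to 1000 UMIs (1.06). Scaled to library totals only, 2 respiratory chain genes and 1 glycolysis gene rose, beside 1.51% of all genes. Slc2a1, Ldha and Pgk1, which carry and ferment glucose, did not pass (0.25, 0.49 and −0.08).

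Among survival genes 15 of 16 were tested and 2 rose, Bcl2a1d (1.45, adjusted p = 0.0183) and Bcl2a1b (1.28, adjusted p = 0.0324), near-identical copies among which reads can be split wrongly. Of 10 heat shock genes tested 1 rose, Hspe1 (0.92, adjusted p = 0.0477), where 2.95% of all genes tested rose. Of 16 S100 and cytoskeleton genes tested 2 rose, S100a10, at 574 and 832 CPM in mIDH1, against 333 and 350 CPM in wtIDH1 (1.34, adjusted p = 0.0105), and S100a11 (1.21, adjusted p = 0.0107). With at most 5% mitochondrial UMIs Bcl2a1d (1.22), Bcl2a1b (0.99), Hspe1 (1.07) and S100a11 (0.86) lost their calls, and with cells reduced to 1000 UMIs Bcl2a1b (1.42), Hspe1 (0.59), S100a10 (1.04) and S100a11 (1.14) did. Without wtIDH1 replicate 1 the calls of Bcl2a1b (1.21), Hspe1 (0.96), S100a10 (1.29) and S100a11 (1.14) were lost. Tcrg-C2, a constant gene of the gamma chain that many CD8 alpha beta T cells also transcribe, rose (1.71, adjusted p = 0.0101), with 81.7 and 94.0 CPM in mIDH1, against 21.6 and 41.8 CPM in wtIDH1, a call lost without wtIDH1 replicate 1 (1.33).

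Genes of the type I interferon response leaned lower without passing. Of 24 listed, 23 were tested, 0 rose and 0 fell, with a median of −0.77 and 2 above 0, and the libraries did not overlap with mIDH1 lower for 14, against 44.4% of all genes tested. Ifit1, which binds foreign RNA, was at 70.7 and 14.8 CPM in mIDH1, against 250 and 104 CPM in wtIDH1 (−1.66, adjusted p = 0.0656). Irf7, the factor that amplifies interferon, was at 69.4 and 30.9 CPM in mIDH1, against 261 and 90.7 CPM in wtIDH1 (−1.47, adjusted p = 0.0666). With members that hold RNA of another cell class left out, 5 of 22 fell, against 1.49% of all genes in that fit. Among the 5 were Rsad2 (−2.11), Ifit1 (−1.73) and Usp18 (−1.44). Scaled to library totals only, 2 of 23 fell, beside 1.92% of all genes.

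**Figure D4:**
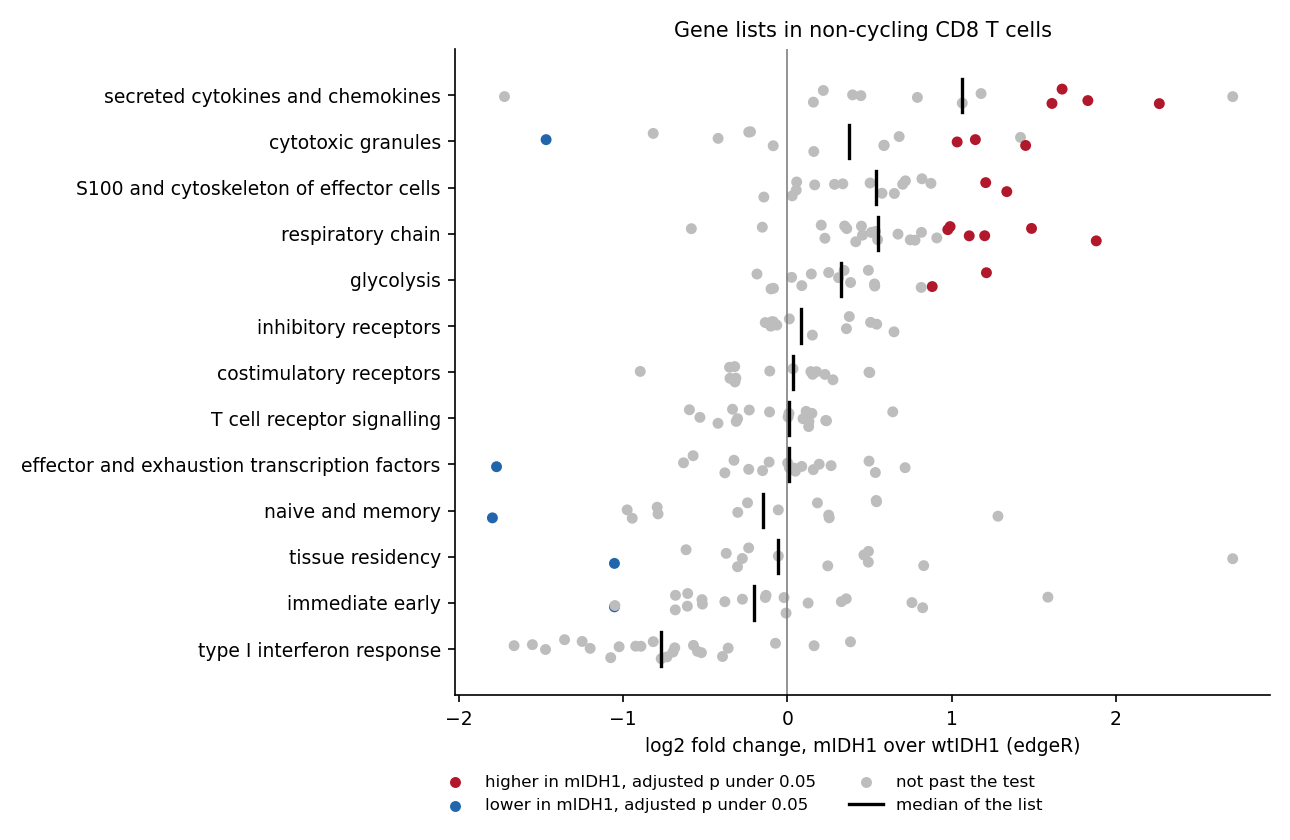
Log2 fold change, mIDH1 over wtIDH1 (horizontal axis), of every tested member of 13 gene lists in non-cycling CD8 T cells, with 1 point per gene, in red or blue where adjusted p was under 0.05 in edgeR and in grey otherwise. The bar in each row is the median of the list, 1.07 for secreted signals and −0.77 for the interferon response, against −0.01 over all genes tested.

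Members that held RNA of another class carried part of the largest changes. Members with 10 or more UMIs over the markers of 1 other class numbered 11 and 7 in mIDH1, against 6 and 4 in wtIDH1. The 10 neutrophil markers summed to 1198 and 1433 CPM in mIDH1, against 24.97 and 28.8 CPM in wtIDH1, and 94.0% and 85.0% of these UMIs lay in 7 and 7 mIDH1 cells. Ltf was at 0 in all 4 libraries. The 8 macrophage markers summed to 267 and 81.9 CPM in mIDH1, against 809 and 629 CPM in wtIDH1, and the 10 dendritic cell markers to 388 and 72.5 CPM in mIDH1, against 2074 and 416 CPM in wtIDH1. S100a9, S100a8, Cxcl2, G0s2, Acod1 and Wfdc17, which rose, and Cd74, Apoe, Tgfbi, Lgmn, Grn, Fn1, Ctsh, Ctsl, Cxcl16 and Pla2g7, which fell, are genes of myeloid cells.

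S100a9 had 864 and 474 UMIs in mIDH1, of which 96.1% and 83.5% lay in these members. With them left out S100a9 (5.33, adjusted p = 0.000822), S100a8 (3.52, adjusted p = 0.00168) and Cxcl2 (2.39, adjusted p = 0.00182) still rose, whereas Cd74, Apoe, Lgmn, Grn and Ctsl lost their calls. The other 8 myeloid genes named above (G0s2, Acod1, Wfdc17, Tgfbi, Fn1, Ctsh, Cxcl16 and Pla2g7) had no adjusted p in that fit. Without these members, 294 genes rose (4.29%) and 102 fell (1.49%) of 6860 tested, or 5.77% in all, and 229 of the 273 calls were shared. Of secreted signals 7 of 12 then rose and 0 fell, among them Ifng (1.597, adjusted p = 0.00256) and Ccl4 (1.86, adjusted p = 0.007). The part of myeloid RNA in the other calls was not tested.

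Cytosolic ribosomal protein genes, a list added after the values were seen, made up 52 of the 211 genes that rose. Of 82 in the files 79 were tested, 52 rose and 0 fell (median 1.09), beside 2.95% and 0.868% of all genes tested. They made up 24.0% and 30.04% of all UMIs of mIDH1 members, against 16.9% and 17.01% of those of wtIDH1 members, with mIDH1 replicate 2 the highest. When scaled to library totals only, 40 of these genes rose, beside 1.51% of all genes. The 13 mitochondrially encoded genes had 0 called.

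Ribosomal genes also rose in the other lymphocyte populations. In CD4 T cells 34 of 79 rose, beside 1.57% of all genes tested there (2.06% called in all). In NK cells 48 rose, beside 3.16% (4.51% in all), and in cycling CD8 T cells 29, beside 1.42% (1.6% in all). Tested as the difference between CD8 and CD4 T cells, 0 of 79 passed in either direction. The ribosomal share of UMIs was 19.4% and 24.5% in mIDH1 CD4 T cells, against 14.4% and 14.0% in wtIDH1 CD4 T cells. It was 11.9% and 14.3% in mIDH1 macrophages, against 10.3% and 10.7% in wtIDH1 macrophages, while in cells rich in S100a8 and S100a9 the groups overlapped.

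**Figure D5:**
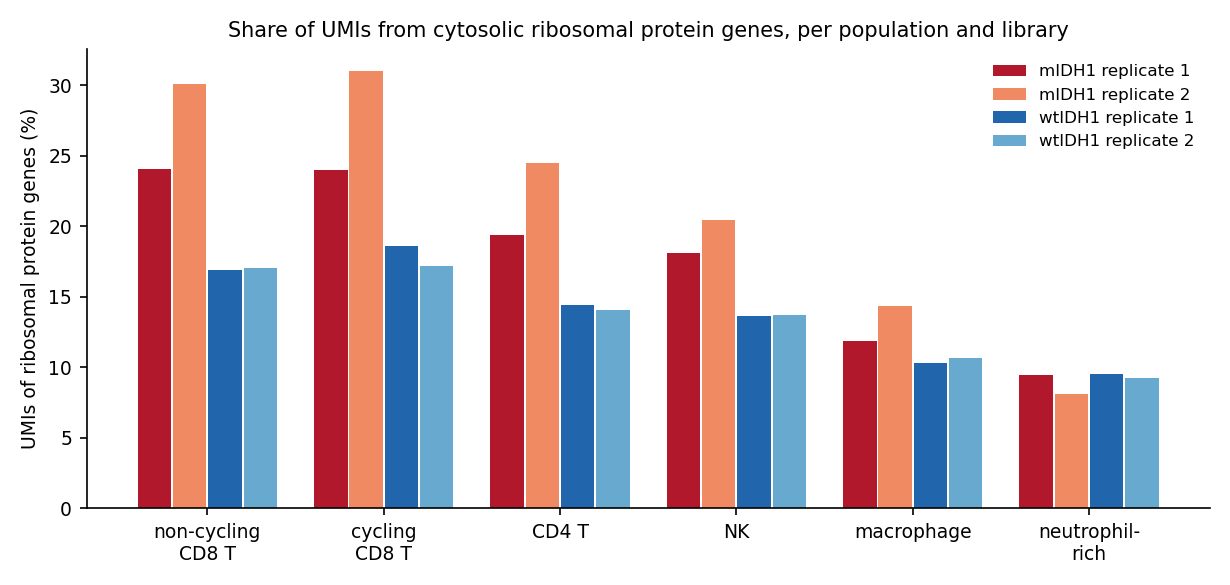
Share of UMIs from cytosolic ribosomal protein genes (vertical axis, percent) in 6 cell populations, with 1 bar per library and mIDH1 left of wtIDH1. Non-cycling CD8 T cells show 24.0% and 30.04% in mIDH1, against 16.9% and 17.01% in wtIDH1. Both mIDH1 bars are higher in all populations but the neutrophil-rich one.

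Transcripts of the genes that rose were shorter than those of all genes tested. By the longest transcript in GENCODE M21, the median length was 1212 bases for genes that rose, 1256 without ribosomal genes, 3049.5 for genes that fell and 3475 for all tested. Of 317 other genes with a longest transcript under 1000 bases, 66 rose and 1 fell (median 0.68), and of 6743 longer ones 92 rose and 61 fell. Ccl3 (766 bases), Ccl4 (660), Ccl5 (668), Nkg7 (881) and Cox8a are of the short kind. Ifng (1208) is over the limit of 1000 bases but lies near the median of the genes that rose. Rgs8 (8474) among the risers and Slamf6 (5729), Serpinb9 (3472) and Dtx1 (4035) among the fallers are longer. The part of transcript length in the calls was not tested.

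Some of the changes are set beside those of CD4 T cells, NK cells and cycling CD8 T cells of the same libraries. In cycling CD8 T cells, Ifng rose as well, at 490 and 398 CPM in mIDH1, against 185 and 227 CPM in wtIDH1 (1.38, adjusted p = 0.0222), while Serpinb9 (−2.45, adjusted p = 0.00198) and Dtx1 (−3.90, adjusted p = 0.0333) fell, beside 0.178% of genes there. Ccl3 had 1.68 (adjusted p = 0.0552), Nkg7 0.89 (adjusted p = 0.0719) and Ccl5 1.59 (adjusted p = 0.0747) there, with the same signs as in the non-cycling cells. In NK cells Ccl5 (1.70, adjusted p = 0.00222) and Nkg7 (1.09, adjusted p = 0.00791) rose, whereas Ifng (−0.20, adjusted p = 0.748) and Serpinb9 (−0.21, adjusted p = 0.675) did not pass, in a fit where 1.35% of genes fell. In CD4 T cells Serpinb9 fell (−1.66, adjusted p = 0.0231), beside 0.493% of genes, and Ccl3 (0.11), Ifng (−0.06), Nkg7 (0.22) and Slamf6 (0.48) did not pass.

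The change in CD8 T cells minus that in CD4 T cells was tested for each gene, with the library as a block. Of 7718 genes 16 passed (0.207%), 6 with the higher change in CD8 T cells (0.0777%) and 10 with the lower (0.13%), and 599 had an unadjusted p under 0.05. Prf1 was among them (4.18, SE 0.41, adjusted p = 0.00126). It was at 14.2 and 16.5 CPM in mIDH1 CD4 T cells, against 232 and 148 CPM in wtIDH1 CD4 T cells. These are only 7 and 4 UMIs in mIDH1, against 167 and 47 UMIs in wtIDH1. Prf1 fell in CD4 T cells (−3.49, adjusted p = 0.00194). Gzma (3.22, adjusted p = 0.0130) and Lag3 (1.71, adjusted p = 0.0348) had differences of the same sign, with Lag3 at 201 and 276 CPM in mIDH1 CD4 T cells, against 671 and 557 CPM in wtIDH1 CD4 T cells. Gzma lost its call in DESeq2 (adjusted p = 0.0993), and Lag3 under library totals (1.64) and without mIDH1 replicate 1 (1.24). For Ccl3 (2.49, adjusted p = 0.0856), Nkg7 (1.30, adjusted p = 0.0932), Slamf6 (−2.29, adjusted p = 0.0688) and Ifng (1.62, adjusted p = 0.421) the difference did not pass, and for Ccl5 it was 0.10 (adjusted p = 0.983).

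Across genotypes, CD8 T cells differed from CD4 T cells in the genes of killing. Of 6864 genes, 265 were higher in CD8 T cells (3.86%) and 206 lower (3%), or 6.86% in all. Of 13 cytotoxic granule genes tested 8 were higher and 0 lower (median 1.28), among them Gzmk (3.27), Gzmf (3.02) and Prf1 (2.61). Gzmf lost its call without mIDH1 replicate 1 (1.71) and without mIDH1 replicate 2 (3.09), and Prf1 without mIDH1 replicate 2 (2.37). Xcl1 (4.71, adjusted p = 0.000614) and Cd160, an NK and T cell receptor (4.54), were higher too, while Penk, an enkephalin precursor (−4.90), Maf (−3.85) and Tnfrsf4, which encodes OX40 (−2.87), were lower. H2-Eb1, a gene of antigen presenting cells, was also higher (2.72), a call lost with the highest Scrublet scores left out (1.06) and in DESeq2, and Penk lost its call in DESeq2 and without mIDH1 replicate 1 (−3.57). Of 15 costimulatory receptors 3 were higher and 8 lower.

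Against NK cells, the nearest killer cells, 753 genes were higher in CD8 T cells (11.7%) and 683 lower (10.6%) of 6445, or 22.3% in all. Nkg7 did not pass (−0.02, adjusted p = 0.913). Of 11 inhibitory receptors tested 9 were higher and 1 lower (median 2.96), with Pdcd1 at 322 ± 61.0 CPM in CD8 T cells and 8.90 ± 17.8 CPM in NK cells (SD over 4 libraries each). Cxcr6 was at 492 ± 134 CPM in CD8 T cells and 3.62 ± 2.79 CPM in NK cells. Both genes were also high in CD4 T cells of the same libraries, with Pdcd1 at 347 ± 60.1 CPM and Cxcr6 at 673 ± 199 CPM. Each was higher in CD8 than in CD4 T cells in only 1 of 4 libraries. Irf4, a factor induced by T cell receptor signals, was at 118 ± 29.4 CPM in CD8 T cells and 0.752 ± 1.505 CPM in NK cells. Of 13 cytotoxic granule genes 2 were higher and 7 lower, and Ly49 genes such as Klra4 were near 0 in CD8 T cells.

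Against cycling CD8 T cells, 1039 genes were higher (14.6%) and 1159 lower (16.3%) of 7106, or 30.9% in all. All 25 cell cycle genes were lower, as the gate on Mki67 and Top2a would select. Of 23 interferon response genes all were higher in the non-cycling cells (median 1.04), as were 11 of 13 naive and memory genes (1.05). Ccl5 was at 1753 ± 929 CPM in non-cycling cells and 399 ± 319 CPM in cycling cells (SD over 4 libraries each), with a log2 difference of 2.17 (SE 0.18, adjusted p = 6.24e-08). Of 23 respiratory chain genes 14 were lower, and of 16 glycolysis genes 6. Cycling cells were deeper, with medians of 10727 to 13098 UMIs.

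Variable genes of the T cell receptor were read in few members. A Trbv gene was found in 28 and 21 mIDH1 members, against 5 and 12 wtIDH1 members. In mIDH1 replicate 1, Trbv26 made up 19 of 28 (67.9%, Wilson 49.3 to 82.1), whereas in mIDH1 replicate 2 it made up 3 of 21, and the top gene of each wtIDH1 library was found in 1 and 3 members. Among cycling CD8 T cells of mIDH1 replicate 1, Trbv26 made up 8 of 15, and among its CD4 T cells the top gene was Trbv2 in 4 of 10. Of 39 members of mIDH1 replicate 1 with a Trav gene, 14 held Trav21-dv12 and 10 Trav16d-dv11. In that library 0 members held Trbv26 together with any Trav gene. Trbv26 and Trav21-dv12 were found together in 1 of the 3 Trbv26 members of mIDH1 replicate 2. The same held for 1 of the 8 cycling Trbv26 cells of mIDH1 replicate 1. The files hold no paired receptor sequences, and V genes were read in 5.07% to 18.9% of members, so the number of clones cannot be told from them.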

How the data were processed

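Single-cell RNA libraries (10x droplets) of tumour-infiltrating immune cells were analysed from raw UMI counts per gene and barcode. The deposited counts were made with Cell Ranger 3.1 on mm10, per the submitters' processing notes, which also name a depth-normalised aggregation; the separate matrices used here differ in depth, and the file headers give software version 3.0.0. Members and gene lists were chosen with earlier results of these data known. Barcodes with at least 200 genes and at most 10% mitochondrial UMIs were kept. Scrublet (scanpy 1.11.5) called under 0.1% of cells and was taken as not having worked, so an alternative left out the highest scores and another left out members with 10 or more UMIs of another class's markers.

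Member counts were summed per library and tested with edgeR 4.0.16 (R 4.3.3; TMM, low-count filter, quasi-likelihood, Benjamini-Hochberg over all genes tested); sums of CD4 T, NK and cycling CD8 T cells were compared with the library as a block. Named genes were the 12 largest changes in each direction past adjusted p 0.05 with libraries apart and a mean of at least 30 CPM, up to 6 members of lowest p per list, a fixed set of CD8 genes, and against other populations the 8 largest each way of at least 50 CPM; the ribosomal list, Tcrg-C2, the transcript lengths and the V genes were chosen after values were seen. In data simulated for 7152 genes in the CD8 genotype comparison, 68.2% of genes changed 4-fold, 2.99% of those changed 2-fold and 0% of those changed 1.5-fold were recovered. The spread in the simulated data was set by a formula of the mean count and not estimated from these libraries. These rates therefore do not give the power of the test on the real data. Shares have 95% Wilson intervals and exact two-sided permutation tests. Alternatives were DESeq2 1.42.0, its size factors, library totals, no filter, stricter gates, thinning to 1000 UMIs, a replicate block and leaving out each library. Results on a few genes are not reported here.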

Additional observations from a re-analysis of the deposited data

Results flagged for a closer look

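In 9 named genes, of the 16 called, the change in mIDH1 against wtIDH1 differed between CD8 and CD4 T cells in edgeR's test of that difference (CD8 change minus CD4 change, log2, adjusted p under 0.05). Prf1 had 4.179, with 799 and 390 CPM in mIDH1 and 461 and 487 CPM in wtIDH1 CD8 T cells. In CD4 T cells it was at 14.2 and 16.5 CPM in mIDH1 (only 7 and 4 UMIs) and 232 and 148 CPM in wtIDH1. Gzma had 3.221 and Lag3 1.707, both lower in mIDH1 than in wtIDH1 in both CD4 libraries and overlapping in CD8 T cells. Gzmc had 6.644, but its UMIs came from few cells, with 199 and 6.72 CPM in mIDH1 and 11.7 and 82.1 CPM in wtIDH1 CD8 T cells. Tgfbi had −3.762, Tgm2 −4.434, Cxcl2 −3.839, Cd74 −2.377 and Sdc4 −4.956, and all but Tgm2 of these were tested and no longer passed with cells that hold RNA of another class left out.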

How the results depend on the processing

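The 273 genes called between genotypes in CD8 T cells became 583 with no low-count filter, 175 among members with at most 5% mitochondrial UMIs, 144 with at least 2 Cd8a or Cd8b1 UMIs, 90 with cells thinned to 1000 UMIs, and 162 to 983 on leaving out 1 library. Scaled to library totals only, 44.1% of 245 calls were higher in mIDH1, against 77.3% of 273. The libraries share only a number (deviations of same-numbered libraries correlated at 0.0965 over genes), and a replicate block gave 671 calls. Against CD4 T cells 471 calls became 248 in DESeq2, 858 with no filter and 238 to 502 on leaving out 1 library, with 38.8% instead of 56.3% higher under library totals. Against NK cells 1436 became 737 in DESeq2, with 40.3% instead of 52.4% higher under library totals, and against cycling CD8 T cells 2198 became 1129 in DESeq2. The 16 differences between CD8 and CD4 changes became 7 in DESeq2, 137 with no filter, 5 with other-class cells left out and 12 to 217 on leaving out 1 library. The difference in CD8 share of kept cells, 0.649 percentage points, was 2.75 at 5% mitochondrial UMIs, 2.89 without neutrophil-rich cells and −0.747 to 2.05 on leaving out 1 library. That in CD8 share of T cells, 11.5 points, was 19.1 at 5% mitochondrial UMIs and 5.11 to 17.9 on leaving out 1 library. Signs turned for Fn1 (0.29, Scrublet), Cd74 (0.57, other-class cells left out; difference from CD4 0.18, Scrublet), Cxcl2 (−0.13, stricter myeloid gate), Gzmf (−4.25 to 2.21) and Gzma (−1.72 to 1.22) on leaving out 1 library. The causes were not tested. Over all single genes and alternatives, 1253 values stayed on their side of the threshold, 175 lost and 13 gained a call, and 6 turned sign. The 6 were called before or after the turn. Uncalled values that changed sign and stayed uncalled count among the 1253. The removal of other-class cells was chosen after seeing the data. The calls between genotypes rest on 98 to 221 members per library, and those at 5% mitochondrial UMIs on 22 to 126.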
